A study of Mus musculus with 6 samples.

Results

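Jmjd6 belongs to a large family of oxygenases, and the question here was whether its relatives changed in thymic stroma that lacks it. The genes described are 10 relatives: the collagen lysyl hydroxylases Plod1, Plod2 and Plod3, the small JmjC proteins Hif1an, Hspbap1, Jmjd4 and Jmjd8, and the JmjC histone demethylase family members Kdm4a, Kdm6b and Jmjd1c. They were taken by gene symbol from a table of 22513 entries, each matched 1 entry, and all 10 passed the filter on low values that left 15894 entries for testing. RNA came from fetal thymic lobes of C57BL/6 mice in organ culture, of WT or Jmjd6-/- genotype, all treated for 4 days with 2-deoxyguanosine (2-DG), which depletes haematopoietic cells. The stroma then received no stimulus, or RANKL for 4 days, the cytokine that induces Aire in medullary thymic epithelial cells (mTECs). There were 6 libraries: 1 of unstimulated WT, 1 of unstimulated Jmjd6-/-, 2 of WT with RANKL and 2 of Jmjd6-/- with RANKL. The mutation is carried in the germline, so every stromal cell type lacked Jmjd6, and the Jmjd6-/- embryos came from heterozygous parents. The submitters' design note calls the repeated libraries technical duplicates, while the paper's methods count 2 samples in each RANKL group. Sex-linked genes differed between repeated libraries, as given below, which repeats of 1 RNA would not show. In either case p-values measure only the spread between these libraries.

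The active enzymes of this family use iron and 2-oxoglutarate to split molecular oxygen and to place a hydroxyl group on their substrate. In the demethylases the hydroxylated methyl group then falls away from the lysine, whereas in the hydroxylases the hydroxyl group stays on the side chain. Jmjd6 hydroxylates lysines of splicing factors, and the Plod enzymes place a hydroxyl group on collagen lysines in the endoplasmic reticulum, where it serves as the anchor for sugars and for the crosslinks of the collagen fibre.

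The iron in the active enzymes is held by a histidine, an acidic residue next but one to it, and a further histidine downstream. The coding windows of 36 bases around the first pair are shown for Jmjd6 and for the 6 relatives in which that pair is certain, because they are the feature that joins these genes into 1 family. Capitals mark the histidine codon and the codon of the acidic residue, and the sequences are read 5′ to 3′ on the coding strand from GENCODE transcripts on mm10.
Jmjd6: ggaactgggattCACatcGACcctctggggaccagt
Hif1an: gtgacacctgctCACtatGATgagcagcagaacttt
Hspbap1: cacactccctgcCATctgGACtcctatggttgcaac
Kdm4a: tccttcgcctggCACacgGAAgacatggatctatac
Plod1: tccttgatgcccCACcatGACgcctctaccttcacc
Plod2: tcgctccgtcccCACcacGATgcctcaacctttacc
Plod3: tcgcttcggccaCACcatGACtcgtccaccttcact

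The acidic residue was aspartate in all of these windows except that of Kdm4a, which has glutamate. The Plod windows lie near the end of the coding sequence, at codon 657 of 728 in Plod1 (exon 18 of 19, chr4:147913259-147913294, minus strand), codon 687 of 758 in Plod2 (exon 19 of 20, chr9:92606815-92606850, plus strand) and codon 670 of 741 in Plod3 (exon 18 of 19, chr5:136994984-136995019, plus strand). The small JmjC proteins carry theirs earlier, at codon 199 of 349 in Hif1an (exon 4 of 8, chr19:44568340-44568375, plus strand) and codon 175 of 483 in Hspbap1 (exon 4 of 8, chr16:35813996-35814031, plus strand). In Kdm4a the histidine was codon 188 of 1064 (exon 5 of 22, chr4:118168423-118168458, minus strand), and in Jmjd6 it was codon 187 of 403 (exon 3 of 6, chr11:116841292-116841327, minus strand). Each pair of Plod windows shared 26 of 36 bases, and the Jmjd6 window shared between 9 and 15 bases with those of its relatives. Over the whole coding sequence the Plod genes were 62.3% to 66.2% identical to each other, which leaves long stretches to separate their reads. A search of the Jmjd8 coding sequence of 316 codons found no histidine followed next but one by aspartate or glutamate, a statement about these letters only.

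The deposited values are FPKM, fragments scaled by transcript length and by the number of mapped fragments, which allow levels to be compared between genes. The spacing of the lowest values put the libraries at 15700000 to 31400000 fragments, so that the least sampled relative, Hspbap1, rested on about 77 fragments in its thinnest library, a counting error of 11.4%, and the others on at least 350. In the libraries labelled Jmjd6-/-, Jmjd6 stood at 1.32 FPKM without RANKL and at 1.96 and 1.78 FPKM with it, against 26.3, 25.9 and 32.5 FPKM in the WT libraries. Stromal epithelial markers (Krt5, Krt8, Epcam, Foxn1, Psmb11) and, with RANKL, Aire were present, with a summed level of 3435 to 4916 FPKM over the libraries. The WT RANKL libraries differed from each other by a median of 0.28 on the log2 scale and the Jmjd6-/- RANKL libraries by 0.08 over 12587 genes whose mean reached 1 FPKM. Fewer cells of a type and less RNA per cell cannot be told apart in these bulk libraries.

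All 10 relatives were expressed in every library. By mean FPKM over the 6 libraries (± SD, n = 6), Plod2 stood at 31.4 ± 9.94 and Kdm4a at 29.1 ± 3.05, followed by Jmjd1c at 19.8 ± 3.35. Plod3 at 14.6 ± 1.17, Jmjd8 at 14.4 ± 1.26 and Hif1an at 13.9 ± 1.62 formed a middle group. Plod1 at 8.02 ± 1.06, Kdm6b at 7.46 ± 0.42, Jmjd4 at 5.54 ± 0.62 and Hspbap1 at 4.16 ± 0.83 were the lowest. The ranges of neighbours in this order overlapped except between Hif1an and Plod1 and between Kdm6b and Jmjd4. Even Hspbap1 lay at percentile 37.3 of the means of all genes tested, and Plod2 at percentile 81.4.

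**Figure D1:**
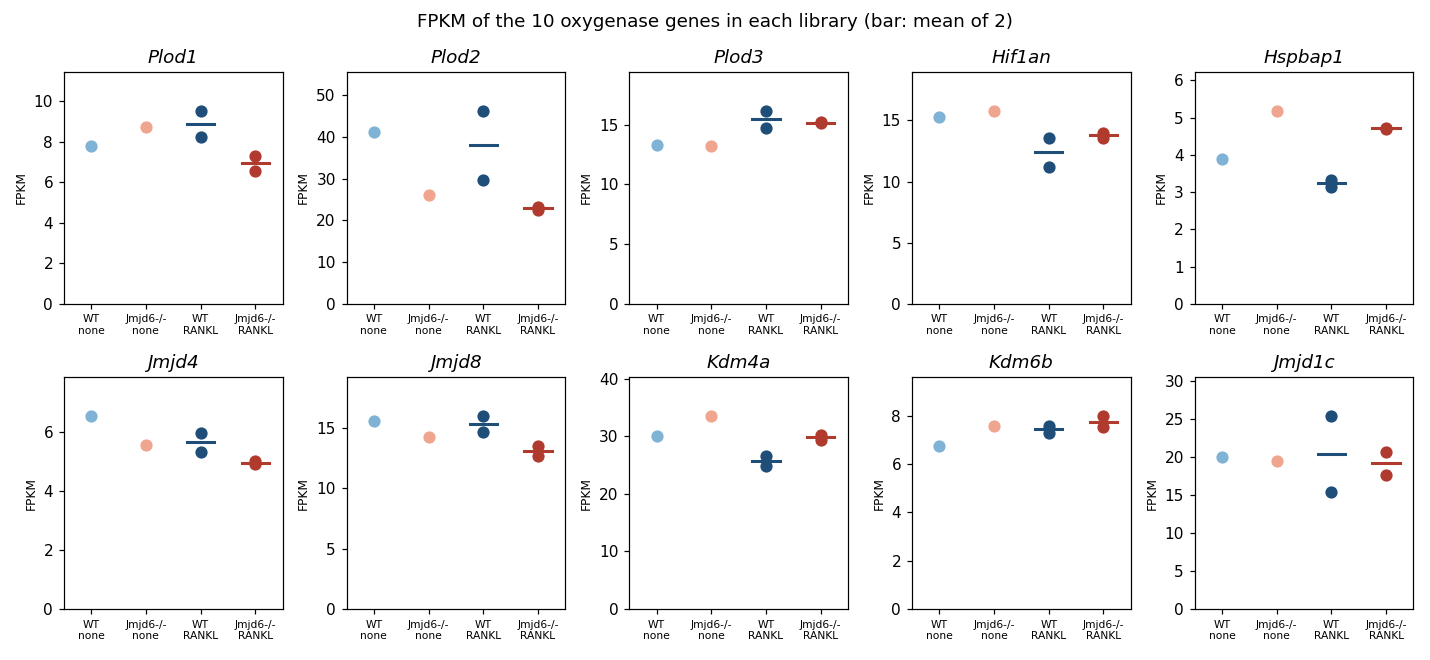
FPKM of each relative by group (y axis from 0, 1 point a library, bar at the mean of the 2 RANKL libraries of a genotype). Plod2 and Jmjd8 were lower and Hspbap1 higher in each Jmjd6-/- library than in any WT library, and the WT RANKL points of Plod2 and Jmjd1c lie far apart.

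With genotypes compared over both conditions (3 Jmjd6-/- against 3 WT libraries, limma with stimulation as a term), none of the 10 relatives passed an adjusted p of 0.05, where 5.44% of all genes tested did (2.05% higher and 3.38% lower). At an unadjusted p under 0.05, 2 were higher (Hspbap1, Kdm4a) and 1 was lower (Plod2), 3 of 10 beside 22.1% of all genes. Their median log2 change, Jmjd6-/- over WT, was -0.03, beside 0.01 for all genes tested. Under RANKL alone (2 against 2) none passed either, where 2.34% of all genes did (0.516% higher and 1.82% lower), and at an unadjusted p under 0.05 Hspbap1 was higher and Plod2 lower, 2 of 10 beside 18.8% of all genes. In the 3 against 3 comparison, the libraries of the genotypes did not overlap for 3 of 10 relatives, where 18.3% of all genes tested behaved so. Of these, 1 relative was higher (9.14% of all genes) and 2 were lower (9.14%). Under RANKL 6 of 10 relatives did not overlap, 2 higher and 4 lower, where 50.7% of all genes did not (24.5% higher and 26.2% lower).

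**Figure D2:**
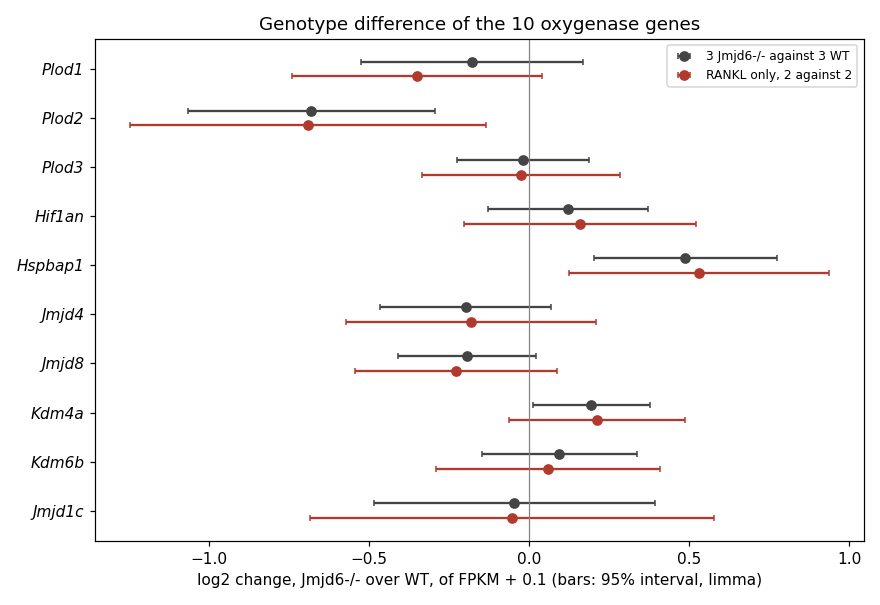
Log2 change of each relative, Jmjd6-/- over WT, on the scale of log2(FPKM + 0.1), with 95% intervals from limma. The intervals of Plod2 (-1.07 to -0.29) and Hspbap1 (0.20 to 0.77) lie farthest from 0 in the 3 against 3 comparison, and none passed after adjustment over all genes.

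Of the lysyl hydroxylases, Plod2, which hydroxylates the lysines of collagen telopeptides from which hydroxylysine crosslinks form, had the largest genotype change of the 10 relatives. Its levels were 41.1 FPKM in unstimulated WT, 46.3 and 29.5 FPKM in WT with RANKL, 26.0 FPKM in unstimulated Jmjd6-/- and 22.5 and 23.3 FPKM in Jmjd6-/- with RANKL. All Jmjd6-/- libraries lay below all WT libraries, although the lower of the WT RANKL libraries was close to them. The log2 change was -0.68 ± 0.16 (SE, n = 3 against 3, adjusted p = 0.064 by limma), a level of 0.62 of WT with an interval of 0.48 to 0.82. Under RANKL it was -0.69 ± 0.22 (SE, limma, adjusted p = 0.19), and between the unstimulated libraries -0.66, which has no replicate. Plod2 passed over both conditions in 4 of 15 alternatives, among them both that left out a WT RANKL library: without the first the change was -0.49 (limma, adjusted p = 0.034), without the second -0.86 (limma, adjusted p = 0.0094), and leaving out either Jmjd6-/- RANKL library gave an adjusted p of 0.24 or 0.23. A fit without a WT RANKL library takes no spread from the WT pair, whose median difference was 0.28 beside 0.08 for the Jmjd6-/- pair. With the trend of each library in GC content and transcript length removed, an alternative chosen after seeing the data, the Plod2 change was -0.73 (limma, adjusted p = 0.0069). The Plod2 transcript had a GC content of 43.0%, the lowest of the 10.

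Plod1, which hydroxylates lysines within the collagen triple helix, and Plod3, which also adds the sugars, had smaller differences. Without RANKL, Plod1 stood at 7.79 FPKM in WT and 8.74 FPKM in Jmjd6-/-. With RANKL it was at 8.21 and 9.54 FPKM in WT and at 7.32 and 6.55 FPKM in Jmjd6-/-. The Jmjd6-/- library was thus the higher before stimulation and both Jmjd6-/- libraries were the lower after it. Under RANKL the change of -0.35 ± 0.16 (SE, limma, adjusted p = 0.32) did not pass. Plod3 was at 13.3 FPKM in unstimulated WT, 13.2 FPKM in unstimulated Jmjd6-/-, 16.2 and 14.7 FPKM in WT with RANKL and 15.1 and 15.2 FPKM in Jmjd6-/- with RANKL. Its genotypes overlapped, and the interval of the 3 against 3 change, -0.23 to 0.19 on the log2 scale, bounds a difference at 0.86 to 1.14 of the WT level.

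Among the small JmjC proteins, Hspbap1, which binds the small heat shock protein Hsp27, was higher in Jmjd6-/- without overlap of the genotypes. It stood at 3.90 FPKM in unstimulated WT, 3.32 and 3.15 FPKM in WT with RANKL, 5.19 FPKM in unstimulated Jmjd6-/- and 4.70 and 4.72 FPKM in Jmjd6-/- with RANKL. Each Jmjd6-/- library was above each WT library. The log2 change was 0.49 ± 0.12 (SE, n = 3 against 3, limma, adjusted p = 0.069), a level of 1.40 times WT with an interval of 1.15 to 1.71, and under RANKL it was 0.53 ± 0.16 (SE, limma, adjusted p = 0.17). It passed over both conditions without the second WT RANKL library (0.45, limma, adjusted p = 0.048), a fit that takes no spread from the WT pair. Under RANKL the change was 0.57 without the first, a fit that keeps 1 WT RANKL library. Removing the GC and length trend gave 0.52 (limma, adjusted p = 0.031). Without either Jmjd6-/- RANKL library the adjusted p rose to 0.35 in both cases. Exons of Hspbap1 share 430 bases with an antisense gene, Gm26838. The library steps that the paper describes include none that keeps the strand, so reads of the shared bases may not be separable.

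Jmjd8, a JmjC protein of the endoplasmic reticulum, was at 15.5 FPKM in unstimulated WT and at 15.98 and 14.6 FPKM in WT with RANKL. In Jmjd6-/- it was at 14.2 FPKM without and at 13.5 and 12.6 FPKM with RANKL. The genotypes did not overlap, but the change was small, -0.19 ± 0.09 (SE, limma, adjusted p = 0.27). Its exons overlap those of Stub1 on the other strand by 1084 bases, where reads may likewise not be separable. Jmjd4, which hydroxylates a lysine of the translation termination factor eRF1, stood at 6.53 FPKM in unstimulated WT, 5.96 and 5.31 FPKM in WT with RANKL, 5.55 FPKM in unstimulated Jmjd6-/- and 5.00 and 4.90 FPKM in Jmjd6-/- with RANKL. The genotypes overlapped through the unstimulated Jmjd6-/- library, and the change of -0.20 ± 0.11 (SE, limma, adjusted p = 0.36) did not pass. Other exon overlaps on the opposite strand were those of Jmjd4 with Snap47 (307 bases), Kdm6b with Kdm6bos (286 bases), Plod2 with Gm38391 (346 bases) and Plod3 with Znhit1 (529 bases).

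Hif1an, the asparaginyl hydroxylase that blocks the transactivation domain of hypoxia-inducible factors (HIF), stood, without RANKL, at 15.3 FPKM in WT and 15.8 FPKM in Jmjd6-/-. With RANKL it was at 13.6 and 11.2 FPKM in WT and at 14.0 and 13.6 FPKM in Jmjd6-/-. Genotypes overlapped over both conditions, with a change of 0.12 ± 0.11 (SE, limma, adjusted p = 0.55).

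The histone demethylases had small differences. Kdm4a, which removes trimethyl marks from lysines of histone H3, stood at 30.1 FPKM in unstimulated WT, 26.6 and 24.8 FPKM in WT with RANKL, 33.6 FPKM in unstimulated Jmjd6-/- and 30.3 and 29.4 FPKM in Jmjd6-/- with RANKL. Within each condition the Jmjd6-/- values were above the WT values, by 0.19 ± 0.08 on the log2 scale (SE, n = 3 against 3, limma, adjusted p = 0.20). Under RANKL the change was 0.26 where the first WT library was left out. That fit keeps 1 WT RANKL library, so its replicate spread comes from the Jmjd6-/- pair alone. Kdm4a passed in no other alternative run. Kdm6b, which opposes Polycomb repression by removing its histone methyl mark, ranged from 6.75 to 7.59 FPKM in WT and from 7.52 to 8.00 FPKM in Jmjd6-/-, and the interval of its change ran from -0.15 to 0.34. Jmjd1c, a relative of the Kdm3 demethylases, was at 25.4 and 15.5 FPKM in the WT RANKL libraries, a spread as wide as that of Plod2, with a GC content as low (43.2%). All its other libraries lay between these values, at 19.96 FPKM in unstimulated WT, 19.5 FPKM in unstimulated Jmjd6-/- and 20.7 and 17.7 FPKM in Jmjd6-/- with RANKL, so that a difference of up to 0.48 on the log2 scale in the lower direction remained inside its interval.

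RANKL itself moved none of the 10 past the threshold (4 RANKL against 2 unstimulated libraries, limma with genotype as a term), where 14.7% of all genes tested passed, and only Kdm4a had an unadjusted p under 0.05 (29.7% of all genes). Their median log2 change was -0.12, beside -0.02 for all genes tested. Hif1an was lower in each RANKL library than in either unstimulated one, by 0.25 ± 0.11 (SE, limma, adjusted p = 0.18). Plod3 was the reverse, higher in each RANKL library, with a change of 0.21 ± 0.09 (SE, limma, adjusted p = 0.19). Such separation was found for 37.4% of all genes. Kdm4a, whose groups overlapped, changed by -0.20 ± 0.08 (SE, limma, adjusted p = 0.16). Tests of whether the RANKL response differed between genotypes called 0 of 10 relatives and 0% of all genes by limma. At an unadjusted p under 0.05 there were 0 of the 10 relatives and 4.18% of all genes, and each genotype had only 1 unstimulated library.

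Other genes of the same enzyme families were taken from lists of related genes. Of 18 other JmjC lysine demethylases none passed between genotypes over both conditions, where 5.44% of all genes did. Their median change was 0.18, beside 0.01 for all genes tested. Of the 18 changes 16 were above 0 and 2 below it (the Y-linked Kdm5d and Uty), where 8145 of 15894 genes were above 0. At an unadjusted p under 0.05, 2 were higher and 0 lower, 2 of 18 beside 22.1% of all genes. With RANKL, Kdm2b, a CpG island-binding demethylase, rose from 8.44 FPKM in unstimulated WT to 14.4 and 18.7 FPKM in WT. In Jmjd6-/- it rose from 8.22 FPKM to 18.1 and 15.4 FPKM, a change of 0.98 ± 0.14 (SE, limma, adjusted p = 0.0051), and it did not pass without either unstimulated library (0.080 without WT and 0.067 without Jmjd6-/-, limma, adjusted p) or with no filter (0.057). It was 1 of 18, where 10.5% of all genes were higher. None of 5 other small JmjC hydroxylases (Kdm8, Jmjd7, Tyw5, Mina, No66) passed in any comparison, where 0% to 14.7% of all genes did. At an unadjusted p under 0.05 they also numbered 0 in each of the 4, beside 4.18% to 29.7% of all genes.

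**Figure D3:**
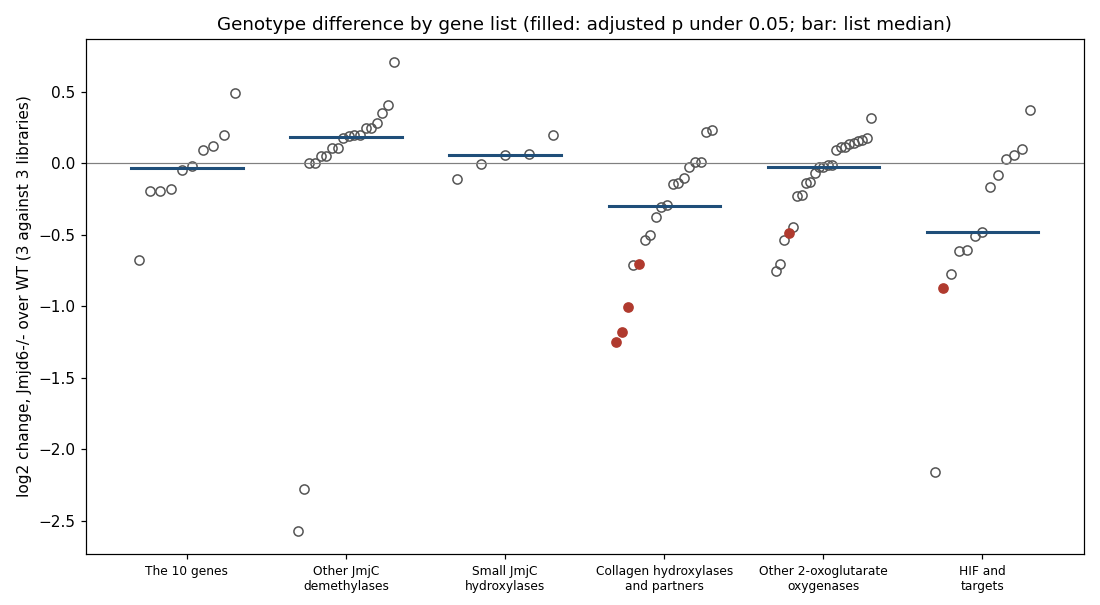
Log2 change, Jmjd6-/- over WT (3 against 3 libraries), of every tested gene by list; filled points passed an adjusted p of 0.05 by limma and bars are list medians. The collagen list holds 4 filled points, all below 0, with a median of -0.30, and the points near -2.5 in the demethylase list are Kdm5d and Uty of the Y chromosome.

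Genes that act on collagen beside the Plod enzymes were lower in Jmjd6-/- in part. Of 18 tested, 4 were lower and 0 higher in Jmjd6-/- over both conditions, where 3.38% of all genes tested were lower. Of the 18 changes 14 were below 0, with a median of -0.30, beside 7749 of 15894 genes and a median of 0.01. Leprel4, also called Sc65, and Leprel2, members of the prolyl 3-hydroxylase family that form a complex with the Plod1 product, were among them. Leprel4 was at 11.04, 14.9 and 13.04 FPKM in the WT libraries and at 5.85, 4.96 and 5.35 FPKM in Jmjd6-/-, a change of -1.25 ± 0.14 (SE, limma, adjusted p = 0.0087). Fkbp10, an endoplasmic reticulum isomerase that telopeptide hydroxylation by Plod2 depends on, was at 7.90, 11.4 and 12.0 FPKM in WT and at 5.10, 5.00 and 5.07 FPKM in Jmjd6-/-, a change of -1.01 ± 0.15 (SE, limma, adjusted p = 0.016). Loxl1, a lysyl oxidase that starts the crosslinks, changed by -1.18 ± 0.14 (SE, limma, adjusted p = 0.010) and Leprel2 by -0.71 ± 0.11 (SE, limma, adjusted p = 0.017). The genotypes did not overlap for these 4 genes, which were called on the same values. Of all genes tested, 9.14% were lower without overlap. Leprel2, Loxl1 and Lox, named further on, were chosen for naming after the values had been seen. Under RANKL alone Leprel4 (-1.42 ± 0.15 SE) and Fkbp10 (-1.20 ± 0.14 SE) passed, each at an adjusted p of 0.028 by limma, 2 of 18 where 1.82% of all genes were lower.

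These calls were lost with no filter on low values, at adjusted p by limma over both conditions of 0.080 for Leprel2, 0.095 for Leprel4, 0.091 for Loxl1 and 0.11 for Fkbp10, and under RANKL of 0.15 for Leprel4 and 0.12 for Fkbp10. Some were also lost with fewer libraries. Without the first Jmjd6-/- RANKL library the adjusted p by limma over both conditions was 0.12 for Leprel2, 0.062 for Loxl1 and 0.093 for Fkbp10, and without the second it was 0.13 for Leprel2, 0.059 for Leprel4, 0.073 for Loxl1 and 0.098 for Fkbp10. Without an unstimulated library it was 0.060 (WT) or 0.056 (Jmjd6-/-) for Leprel2, and 0.051 for Loxl1 without the WT one. Under RANKL, leaving out the first or the second Jmjd6-/- library gave 0.076 each time for Leprel4 and 0.14 or 0.16 for Fkbp10. Every change kept its direction in the alternatives run.

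Markers of mesenchyme, the main collagen-producing cells of the thymic capsule and septa, moved with these genes. The summed level of 8 markers (Col1a1, Col1a2, Col3a1, Pdgfra, Pdgfrb, Dcn, Lum, Postn) ran from 768 to 841 FPKM in WT and from 370 to 496 FPKM in Jmjd6-/-. All 8 changes over both conditions were below 0, with a median of -0.91, and 5 of 8 passed, where 3.38% of all genes were lower. Col3a1, for example, was at 266, 245 and 235 FPKM in WT and at 127, 125 and 115 FPKM in Jmjd6-/-. None of the 8 markers was at 0 in any group. The part of mesenchyme in the values of Plod2 and the collagen-modifying genes was not tested. Endothelial markers were lower too, 3 of 5 past the threshold beside the same 3.38% of all genes, with a sum of 12.3 to 22.4 FPKM in WT and 4.10 to 8.31 FPKM in Jmjd6-/-.

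**Figure D4:**
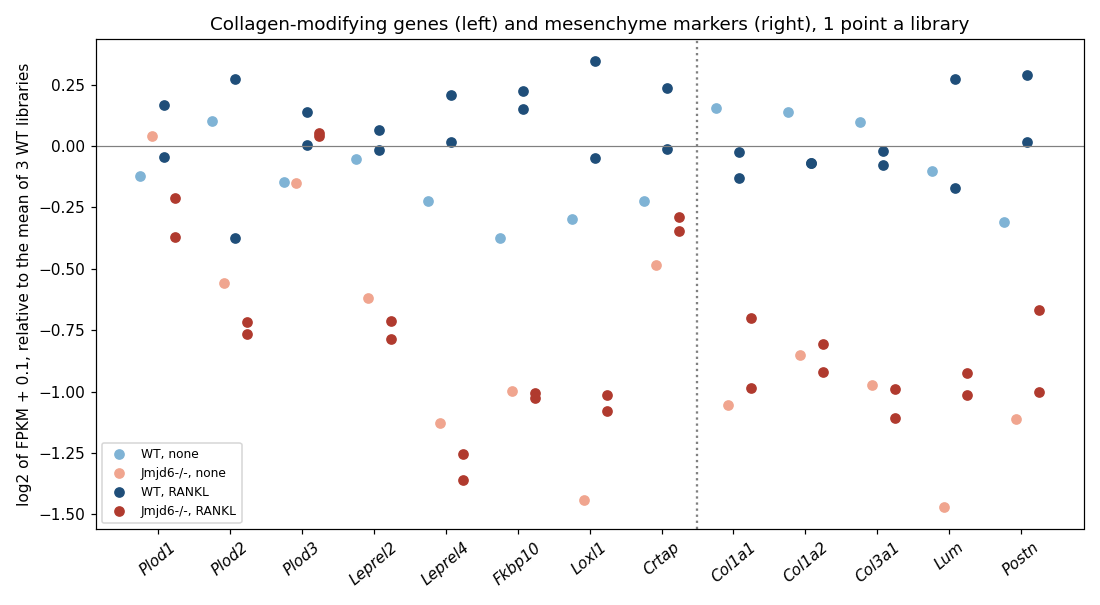
Log2 of FPKM + 0.1 relative to the mean of the 3 WT libraries (y axis), with 1 point a library coloured by group. Selected collagen-modifying genes are left of the dotted line and selected mesenchyme markers right of it. Of the 8 mesenchyme markers Dcn, Pdgfra and Pdgfrb are not drawn. Not all genes of the collagen list are drawn, and those left out include the 4 with a change above 0 over both conditions (Lox, Loxl4, P4ha3, Colgalt2). Leprel4, Fkbp10, Loxl1, Col1a1, Col3a1, Lum and Postn lie near -1 in Jmjd6-/- (Col3a1 -1.02), Plod2 lies between them and 0, and Plod1 and Plod3 scatter around 0.

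RANKL moved other genes of the collagen list. Loxl4 rose with a change of 1.97 ± 0.34 (SE, limma, adjusted p = 0.011) from 0.17 and 0.075 FPKM to between 0.54 and 0.97 FPKM, all of them low levels. P4ha2, a prolyl 4-hydroxylase subunit, rose by 0.86 ± 0.20 (SE, limma, adjusted p = 0.033), from 3.27 FPKM to 7.60 and 8.41 FPKM in WT and from 3.28 FPKM to 4.43 and 4.63 FPKM in Jmjd6-/-. Lox fell from 26.4 FPKM to 15.5 and 12.7 FPKM in WT and from 33.1 FPKM to 14.4 and 17.2 FPKM in Jmjd6-/- (-0.98 ± 0.13 SE, limma, adjusted p = 0.0036). Colgalt2, listed as Glt25d2, fell from 0.96 and 1.16 FPKM to between 0.33 and 0.40 FPKM (-1.27 ± 0.24 SE, limma, adjusted p = 0.015). These were 2 genes higher and 2 lower of 18, where 10.5% of all genes were higher and 4.11% lower. Without the unstimulated Jmjd6-/- library the adjusted p by limma was 0.075 for Loxl4, 0.061 for Lox and 0.14 for Colgalt2, and without the unstimulated WT library it was 0.052 for Lox, 0.094 for Colgalt2 and 0.35 for P4ha2, whose change was then 0.45. Without the first or second Jmjd6-/- RANKL library it was 0.068 or 0.080 for P4ha2 and 0.065 or 0.066 for Colgalt2. With no filter it was 0.076 for Loxl4 and 0.14 for P4ha2, and with no trend 0.062 for P4ha2.

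Hif1an acts beside the prolyl hydroxylases that mark HIF for destruction, so the HIF pathway was read with it. In the list of 13 HIF genes and targets, 3 were lower in Jmjd6-/- under RANKL, where 1.82% of all genes were lower. Of the 13 changes 11 were below 0, with a median of -0.79, beside 7658 of 15894 genes and a median of 0.01. Vegfa, the endothelial growth factor, was at 96.3 and 94.99 FPKM in WT and at 50.7 and 44.5 FPKM in Jmjd6-/- with RANKL (-1.01 ± 0.12 SE, limma, adjusted p = 0.028). Ldha, lactate dehydrogenase, was at 224 and 260 FPKM against 116 and 121 FPKM (-1.03 ± 0.12 SE, limma, adjusted p = 0.028). Bnip3, a mitophagy receptor, was at 91.9 and 88.3 FPKM against 50.2 and 47.0 FPKM (-0.89 ± 0.11 SE, limma, adjusted p = 0.028). Without the first or second Jmjd6-/- library the adjusted p by limma under RANKL was 0.077 or 0.19 for Vegfa, 0.14 each time for Ldha and 0.14 or 0.24 for Bnip3. With no filter on low values it was 0.16 for Vegfa, 0.17 for Ldha and 0.14 for Bnip3, and with no mean-variance trend 0.054, 0.055 and 0.058. Over both conditions Vegfa alone passed (-0.88 ± 0.11 SE, limma, adjusted p = 0.010), 1 of 13 where 3.38% of all genes were lower. Leaving out the first or second Jmjd6-/- RANKL library took it to an adjusted p of 0.059 or 0.062 by limma, and dropping the filter to 0.10. Without RANKL, WT and Jmjd6-/- stood at 75.6 and 86.8 FPKM for Ldha, 43.3 and 41.9 FPKM for Bnip3 and 52.8 and 34.5 FPKM for Vegfa. The RANKL response differed between genotypes past the threshold for 0 of 13. At an unadjusted p under 0.05 by limma 4 were lower and 0 higher, beside 4.18% of all genes. With RANKL itself, pooled over genotypes, Adm (1.35 ± 0.14 SE), Ldha (1.06 ± 0.25 SE) and Vegfa (0.66 ± 0.11 SE) rose, at adjusted p of 0.0017, 0.037 and 0.012 by limma, 3 of 13 where 10.5% of all genes were higher. Adm passed in all 15 alternatives. With no filter Ldha (0.19) and Vegfa (0.083) did not, nor did Ldha with no trend (0.086, adjusted p by limma). Ldha did not pass without the unstimulated WT library (0.45, limma, adjusted p = 0.23) or without the first or second Jmjd6-/- RANKL library (0.055 or 0.063, adjusted p by limma), nor Vegfa without the unstimulated WT library (0.46, limma, adjusted p = 0.19) or the first Jmjd6-/- RANKL library (limma, adjusted p = 0.051).

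Of 24 other 2-oxoglutarate oxygenases 23 were tested, and Tmlhe was listed at 0 in every library. Between genotypes over both conditions Egln1, a prolyl hydroxylase of HIF, was lower by a narrow margin, at 19.0, 24.3 and 23.0 FPKM in WT and 15.9, 14.8 and 16.2 FPKM in Jmjd6-/- (-0.49 ± 0.11 SE, limma, adjusted p = 0.0497), and it passed in 3 of 15 alternatives. Its adjusted p by limma was 0.26 or 0.24 without the first or second Jmjd6-/- RANKL library, 0.063 without the first WT RANKL library, and 0.070 (WT) or 0.068 (Jmjd6-/-) without an unstimulated library. Egln1 was the 1 of 23 called over both conditions, where 3.38% of all genes were lower. None passed under RANKL alone, where 2.34% of all genes did. At an unadjusted p under 0.05 by limma 0 were higher and 2 lower, 2 of 23 beside 18.8% of all genes. Egln3, a further prolyl hydroxylase of HIF, rose with RANKL (0.90 ± 0.15 SE, limma, adjusted p = 0.011), as did Phyhd1, a phytanoyl-CoA dioxygenase domain protein (0.87 ± 0.20 SE, limma, adjusted p = 0.034). Asph, which hydroxylates aspartate and asparagine in epidermal growth factor-like domains, fell (-0.40 ± 0.10 SE, limma, adjusted p = 0.038). These were 2 higher and 1 lower of 23, where 10.5% of all genes were higher and 4.11% lower. None of the 3 passed with no filter on low values (adjusted p by limma of 0.092 for Egln3, 0.12 for Phyhd1 and 0.097 for Asph). None passed without either unstimulated library, with adjusted p by limma of 0.051 (without WT) and 0.13 (without Jmjd6-/-) for Egln3, 0.15 and 0.26 for Phyhd1 and 0.27 both times for Asph. Phyhd1 and Asph also did not pass without the first (0.13 and 0.14) or the second (0.095 and 0.14) Jmjd6-/- RANKL library.

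JmjC genes of the sex chromosomes differed between libraries of a group. Kdm5d, on the Y chromosome, was at 7.73 FPKM in unstimulated WT, 0.022 FPKM in unstimulated Jmjd6-/-, 5.34 and 3.35 FPKM in WT with RANKL and 6.23 and 1.56 FPKM in Jmjd6-/- with RANKL. Uty, also Y-linked, followed it at 9.89, 0.011, 7.17, 4.12, 7.32 and 1.69 FPKM in the same order. Their X-linked counterparts varied less, Kdm5c from 19.7 to 28.7 FPKM and Kdm6a from 10.7 to 19.6 FPKM. None of these 4 passed in any comparison. Xist, expressed from the inactive X chromosome, was at 28.2 and 65.9 FPKM in the Jmjd6-/- RANKL libraries and at 71.8 and 30.9 FPKM in the WT ones, so that repeated libraries of a genotype differed more than 2-fold. The sums of 4 Y-linked genes ran from 41.0 to 78.3 FPKM in WT and from 0.12 to 73.7 FPKM in Jmjd6-/-. The part of embryo sex in the values of the 10 relatives was not tested.

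**Figure D5:**
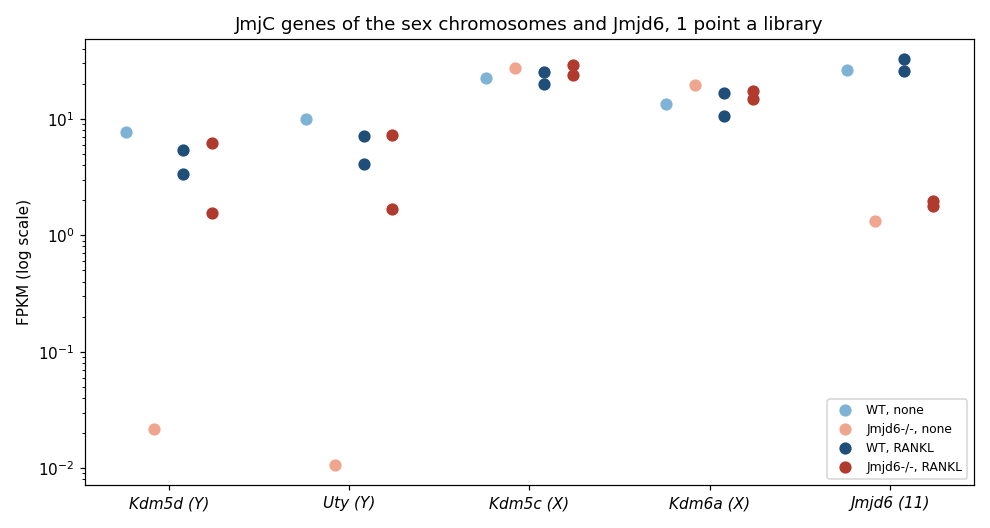
FPKM on a log axis of the sex-linked JmjC genes and of Jmjd6, with 1 point a library coloured by group. Kdm5d (0.022 FPKM) and Uty (0.011 FPKM) are near the bottom in unstimulated Jmjd6-/- only, and Jmjd6 lies below 2 FPKM in each Jmjd6-/- library.

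Other markers gave the cell makeup beside these results. Of 8 mTEC markers 2 (Krt14, Cldn4) were higher in Jmjd6-/- over both conditions, where 2.05% of all genes were. The sum of all 8 was 1168 to 1656 FPKM in WT and 2013 to 2094 FPKM in Jmjd6-/-. Most of it was Krt5 (1006 to 1548 and 1879 to 1977 FPKM). Of the 8 changes 7 were above 0 over both conditions. Under RANKL 5 were above 0 and 3 below it (Aire, Fezf2, Cldn3), and none passed, where 2.34% of all genes did. At an unadjusted p under 0.05 by limma 4 were higher and 0 lower, beside 18.8% of all genes. Of 7 markers of cortical epithelium none passed over both conditions, where 5.44% of all genes did. At an unadjusted p under 0.05 by limma 0 were lower and 1 higher, beside 22.1% of all genes. Macrophage markers were present, led by Lyz2, at sums of 346 to 424 FPKM. None of 5 passed between genotypes over both conditions, where 5.44% of all genes did. At an unadjusted p under 0.05 by limma 0 were higher and 1 lower, beside 22.1% of all genes. All 4 neutrophil genes measured rose with RANKL, where 10.5% of all genes did, from sums of 1.93 and 8.14 FPKM to between 84.5 and 170 FPKM. Most of this was S100a8 (58.5 to 141 FPKM with RANKL) and S100a9. Ngp and Mpo, listed at 0 in both unstimulated libraries, reached at most 2.03 FPKM. Under RANKL Ngp and Mpo were lower in Jmjd6-/- (limma, adjusted p = 0.036 and 0.028), where 1.82% of all genes were lower. S100a8 was also below 0 and S100a9 above it, and neither passed. Whether neutrophils were present was not tested. T cell markers summed to at most 1.69 FPKM, and Cd3e and Cd3d were each listed at 0 in 5 of 6 libraries.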

How the data were processed

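Poly-A RNA had been sequenced by the authors in paired-end mode. Per the labels and methods, reads were mapped to mm10 with TopHat2 2.0.10, and FPKM per gene was computed with Cufflinks 2.1.1 with multi-read correction and a stranded library setting, although the kit description names no step that keeps the strand. The authors deposited these FPKM values in 1 table, and they were used as deposited, without rescaling. Genotype and stimulation came from sample titles and the stimulation field. The treatment field gives RANKL for every sample.

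The tests used limma 3.58.1 in R 4.3.3 on log2(FPKM + 0.1), a scale that understates changes of low genes, with a mean-variance trend and two-sided p-values adjusted by Benjamini-Hochberg over the 15894 genes whose mean reached 0.1 FPKM. Intervals cover 95%. The exact permutation test of a single gene cannot go below p = 0.1 with 3 against 3 libraries or 0.333 with 2 against 2. The code was tested on simulated data. Depth was estimated from FPKM below 0.15 and transcript length less 150 bp, is approximate, and its counting errors cover counting only.

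All 10 relatives are named, as are Jmjd6, the sex-linked JmjC genes, and from each related list the genes past the threshold (the 3 largest changes in each direction where more than 6 passed). Ccl21a and Ly6g of the marker lists had no entry. The members and lists were chosen with earlier results of these data known. The alternatives added 1 or 0.01 to FPKM, dropped the filter or set it at a mean of 1 FPKM, dropped the trend, and used 2 other scalings, a replicate term, each library left out in turn, or the 4 RANKL libraries only. Removal of the GC and length trend in 20 bins was added after seeing the data. It had GENCODE lengths for 98.6% of entries and for all 10 relatives. Sequences came from GENCODE transcripts on the same build. Amino-acid sequences were not used here.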

Additional observations from a re-analysis of the deposited data

Results flagged for a closer look

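The 10 relatives and the tested genes of the 5 related lists (18, 5, 18, 23 and 13 genes) were searched, and the marker lists were not. For 9 genes the Jmjd6-/- and the WT RANKL libraries lay on opposite sides of 0, relative to the unstimulated library of their genotype. The share of all genes with this pattern was not computed, so the 9 are not read as a result about these lists. The difference of the responses was tested as an interaction in limma and passed for none of the 9, where 0% of all genes passed. Of the relatives, Plod1 was above its unstimulated level in both WT libraries and below it in both Jmjd6-/- libraries, with a difference of -0.51 ± 0.27 (SE, limma, adjusted p = 1.00, unadjusted p = 0.11). Among collagen-modifying genes the difference was -0.53 for P4ha1, -0.21 for Leprel2, -0.52 for Leprel4 and -0.58 for Fkbp10, and it was -0.54 for Slc2a1, a glucose transporter and HIF target, and 0.22 for Kdm8. Kdm5d (5.59) and Uty (5.89) had the lowest unadjusted p, 0.0032 and 0.0034, at an adjusted p of 0.71 by limma. Their values rest on the unstimulated Jmjd6-/- library, where both Y-linked genes were near 0.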

How the results depend on the processing

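A limit on all results is the number of libraries: 1 unstimulated library per genotype and 2 RANKL libraries, so counts of called genes moved widely while most signs did not. Of the values for single relatives under the alternatives, 537 kept their direction and side of the threshold, 12 came to pass (those of Plod2, Hspbap1 and Kdm4a, most given with the results) and 21 changed sign without passing. Of the values for called genes of the related lists, 273 kept their call and 94 lost it, all with the same sign. The scalings moved the median of all genes by less than 0.1 on the log2 scale. The cause of each change was not tested.

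For the RANKL effect, 1675 genes were higher and 654 lower. Without the filter 788 were higher and 299 lower, without the trend 398 were lower, without the unstimulated WT library 623 were higher and 54 lower, without the unstimulated Jmjd6-/- library 998 were higher and 88 lower, and with the GC and length trend removed 1317 were lower. Leaving out a RANKL library gave 1004 to 2176 higher and 166 to 1499 lower. For genotype under RANKL, with 82 higher and 290 lower, 180 were lower with 0.01 added, 172 were lower with the filter at a mean of 1 FPKM, and 1 was higher and 1 lower without the filter. The GC and length trend removed gave 366 higher, 682 lower and 1 relative called (Plod2). Leaving out a RANKL library gave 22 to 2428 higher, 82 to 1836 lower and 0 to 3 relatives called. For genotype over both conditions, with 326 higher and 538 lower, 1 was higher and 3 lower without the filter, 87 and 301 without the unstimulated WT library, 88 and 329 without the unstimulated Jmjd6-/- library, and 708 and 831 with the GC and length trend removed, where 2 relatives were called (Plod2, Hspbap1). Leaving out a RANKL library gave 29 to 712 higher, 59 to 814 lower and 0 to 2 relatives called. The difference of the RANKL response, with 0 calls, gave 93 higher and 83 lower without the filter, and 0 to 4 higher and 0 to 1 lower without a RANKL library.

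The difference between the WT RANKL replicates and that between the Jmjd6-/- RANKL replicates correlated at -0.08 over genes. With a single pair of libraries per genotype, this cannot decide whether the replicate numbers pair the genotypes. With the replicate number as a block, 315 genes were lower with RANKL, 396 were higher and 1081 lower between genotypes under RANKL, and the difference of the response had 27 higher and 67 lower. In this block fit 1 relative, Plod2, was called under RANKL (limma, adjusted p = 0.011) and 1, again Plod2, over both conditions (limma, adjusted p = 0.036), and Jmjd1c changed by 0.21 with RANKL.

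Sign changes were found where the change was near 0 or rested on few libraries. The RANKL effect on Jmjd1c (-0.02) was 0.029 with median ratio scaling, 0.16 with the GC and length trend removed and -0.17 to 0.13 with a RANKL library left out. That on Plod1 (-0.07) was 0.18 without the unstimulated Jmjd6-/- library. Plod3, with the GC and length trend removed, was at 0.047 for genotype under RANKL, 0.039 over both conditions and 0.024 for the difference of the response.
With a RANKL library left out, genotype under RANKL ranged from -0.41 to 0.30 for Jmjd1c and from -0.093 to 0.042 for Plod3, and genotype over both conditions from -0.25 to 0.16 for Jmjd1c and from -0.055 to 0.022 for Plod3. The difference of the RANKL response ranged from -0.38 to 0.34 for Jmjd1c, from -0.35 to 0.29 for Plod2, from -0.088 to 0.047 for Plod3, from -0.033 to 0.13 for Jmjd4 and from -0.026 to 0.25 for Hif1an.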
